A study of Mus musculus with 38 samples.

Results

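The libraries described here come from 1 organoid line, 1027B, that carried a scrambled hairpin (shScramble), a control for hairpin expression. Organoids here are cultures of tumour cells in Matrigel, a basement membrane gel, with L-WRN conditioned medium, and this line was derived from a single mouse lung adenocarcinoma. The libraries are the 4 of the deposited count table whose source name is 1027B shScramble, out of 38 in the series: 2 were made after 72 hours of 2 uM 4-hydroxytamoxifen (4-OHT) and 2 after ethanol vehicle. Both groups were Foxa1flox and Foxa2flox, with Rosa-FSF-CreERT2 beside the tumour alleles p53frt and KrasFSF-G12D, on a Mixed 129/B6 background. Thus both carried the tumour alleles, the tamoxifen-inducible Cre and both floxed genes, and 4-OHT was what set them apart. The same table holds 4 libraries of line 1027B with a hairpin against Nkx2-1 (shNKX2-1), 2 with 4-OHT and 2 with vehicle. A separate table holds 4 libraries of line 1027B without a hairpin, again 2 with 4-OHT and 2 with vehicle. Treated organoids without floxed alleles were not analysed here, so effects of 4-OHT or of active Cre cannot be told apart from loss of the floxed genes. When RNA was collected after treatment was not stated by the labels.

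Foxa1 and Foxa2 are forkhead transcription factors that open chromatin for other factors in endoderm-derived organs, among them lung, liver, stomach and gut. In lung they act beside Nkx2-1, the factor that marks alveolar and airway cells and many lung adenocarcinomas. Cre excises sequence between loxP sites, so 4-OHT was given to delete both genes in cells that had already formed a tumour. The comparison asks what the organoids expressed after that treatment when Nkx2-1 was not targeted.

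Total counts were 16012911 and 14953430 in the 4-OHT libraries, and 16262459 and 14945119 in the vehicle libraries. Mitochondrial transcripts took 3.47% and 2.98% of counts with 4-OHT, and 2.50% and 2.29% with vehicle. Log2 CPM (read counts scaled by library size) correlated across genes at r = 0.989 between the 4-OHT libraries and 0.978 between the vehicle libraries, and at 0.929 to 0.948 between a 4-OHT and a vehicle library. Vehicle replicate 2 stood apart from vehicle replicate 1 in genes of hypoxia and glycolysis, which are described below. Whether libraries of a group came from separate cultures is not said in the labels, so p-values measure only the spread between these libraries, which may be technical. In bulk RNA, fewer cells of a type and less RNA per cell cannot be told apart.

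Of 14465 genes tested with edgeR's quasi-likelihood test, 241 (1.67%) were higher and 386 (2.67%) lower with 4-OHT at an adjusted p under 0.05, together 627 genes or 4.33%. Both 4-OHT libraries lay above both vehicle libraries for 4719 genes (32.6%) and below both for 4143 genes (28.6%). The median log2 change over all genes was 0.02. All 8 libraries of the table supplied the estimate of spread, among them the shNKX2-1 4-OHT libraries, which differed most from each other, with r = 0.934 and 11.7% mitochondrial counts in replicate 2. Without shNKX2-1 4-OHT replicate 2 the same comparison called 648 genes higher and 1007 lower, and with the 4 shScramble libraries alone 630 higher and 972 lower, in which 621 of the 627 genes kept their call and direction. Leaving out a shScramble library lowered the number of calls to 170 without 4-OHT replicate 1, 138 without 4-OHT replicate 2, 243 without vehicle replicate 1 and 176 without vehicle replicate 2.

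The floxed genes were examined first. Foxa2 (chr2:148042877-148046969, minus strand, GRCm38) had 2.26 and 2.58 CPM in the 4-OHT libraries, against 89.0 and 76.8 CPM in the vehicle libraries. Every 4-OHT value was far below every vehicle value, and the gene fell 34.1-fold (log2 change −5.09 ± 0.54 SE, adjusted p = 0.00227). Foxa1 (chr12:57540628-57546916, minus strand) had 20.1 and 18.5 CPM with 4-OHT, against 32.1 and 22.1 CPM with vehicle. The groups did not overlap, but the gap between 20.1 and 22.1 CPM is smaller than the gap between the vehicle libraries, and the log2 change of −0.49 ± 0.27 (SE) did not pass the test (adjusted p = 0.469). In the fit of the 4 shScramble libraries alone the change was −0.52 with an adjusted p of 0.175. Counts are per gene and the labels do not say which part of Foxa1 is floxed, so reads from sequence outside the deleted part are counted and the table cannot show whether the allele was recombined. Foxa1 had 21.9 and 19.7 CPM after 4-OHT and 34.1 and 27.3 CPM after vehicle under shNKX2-1, and 13.8 and 11.4 CPM after 4-OHT against 17.3 and 66.7 CPM after vehicle without a hairpin.

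Other endoderm factors fell with Foxa2. Foxa3, the third member of the family and a liver and gut factor, had 2.88 and 1.68 CPM with 4-OHT, against 13.0 and 21.1 CPM with vehicle, and fell by 2.90 on the log2 scale (SE 0.44, adjusted p = 0.00969). For Foxa3 the log2 change ran from −3.34 to −2.54 over the settings tried. Its call was lost in some fits that left out a shScramble library. Hnf4a, a nuclear receptor factor that drives liver and intestinal genes, fell as well. Hnf4a had 10.3 and 8.84 CPM with 4-OHT, against 165 and 107 CPM with vehicle (log2 change −3.83 ± 0.35 SE, adjusted p = 0.00172). Of 7 tested HNF and gut factors 3 were called, all lower, against 2.67% of all genes lower, and the list's median was −0.75. Gata4, a factor of stomach and gut endoderm, did not pass, with 13.7 and 8.58 CPM with 4-OHT against 21.3 and 16.1 CPM with vehicle. Cdx1 and Cdx2, the intestinal homeodomain factors, had 0 counts in all 4 libraries. Without any one of the 4 shScramble libraries, 2 or 3 of the list were called, Hnf4a in each case.

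Nkx2-1 itself had 359 and 408 CPM with 4-OHT, against 424 and 428 CPM with vehicle (log2 change −0.15 ± 0.22 SE, adjusted p = 0.830). Of the 17 lung lineage factors tested, 1 was called (5.88%, against 4.33% of all genes), so the count is no result about the list. The called gene was Foxp2, a forkhead factor of the lung epithelium, which had 0.490 and 0.645 CPM with 4-OHT, against 16.1 and 14.7 CPM with vehicle. Cebpa, a factor of alveolar type 2 maturation, had 73.6 and 82.3 CPM with 4-OHT, against 249 and 274 CPM with vehicle, and did not pass (adjusted p = 0.302). It passed in the fit of the 4 shScramble libraries alone (log2 change −1.77, adjusted p = 0.00155), as did Klf5, Gata6 and Foxp1, each lower. Sox9, the factor of embryonic lung tips, overlapped between groups at 83.4 and 76.4 CPM with 4-OHT and 81.5 and 98.3 CPM with vehicle.

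**Figure D1:**
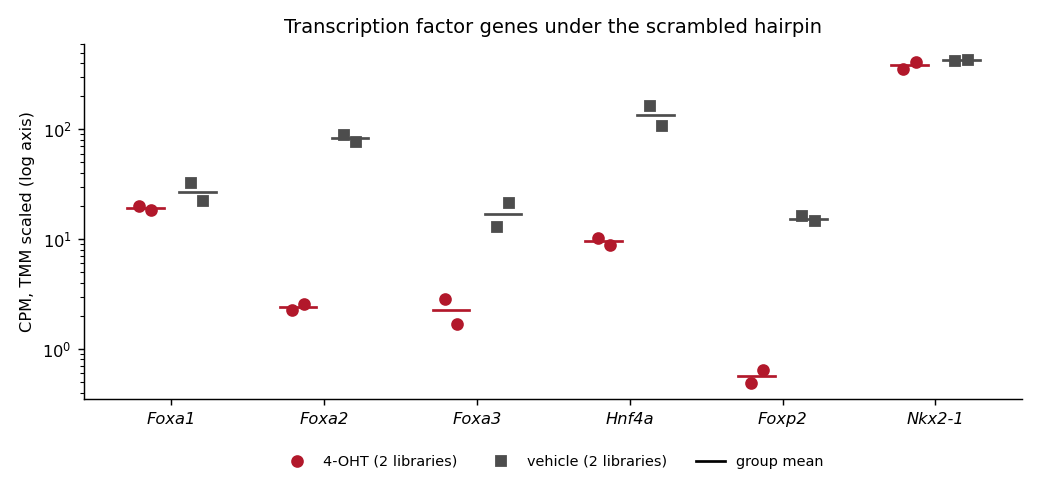
CPM of 6 transcription factor genes in each library (log axis), 4-OHT as circles on the left and vehicle as squares on the right of each gene, with bars at the group means. Foxa2, Foxa3, Hnf4a and Foxp2 lie far lower with 4-OHT, while Foxa1 and Nkx2-1 lie close to their vehicle values.

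The gastric epithelium list had the largest share of lower calls among the lists tested. Of 24 listed, 11 were not tested. Of 13 tested, 8 were lower and none higher, against 2.67% of all genes lower. Tff1, Gkn2 and Gkn3 had 0 counts in both 4-OHT libraries, so they passed the low-count filter only through other groups. The list was also chosen with earlier results of these data known, so this share is not a test of the list. The list's median log2 change was −3.91, or −4.77 over 12 members when those with 0 counts in a group are set to the bound that 3 counts allow, while Tff2, at 0 counts in all 4 libraries, is left out. Tff1, a trefoil peptide of gastric surface cells, had 0 CPM in both 4-OHT libraries, against 101 and 24.8 CPM with vehicle, and was at least 696-fold lower. Gkn2, a gastrokine secreted by the same cells, had 0 CPM in both 4-OHT libraries, against 21.5 and 17.8 CPM with vehicle, at least 210-fold lower. Gkn3, another gastrokine, was at least 88.8-fold lower. For Vsig1, an adhesion protein of stomach epithelium, 2 counts were found with 4-OHT and 541 with vehicle, a vehicle to 4-OHT ratio of 271 (95% exact counting interval 74.7 to 2244). Anxa10, an annexin of gastric mucosa, gave a ratio of 140 (38.5 to 1164) from 2 and 280 counts. Ctse, an aspartic protease of gastric surface cells, had 4.65 and 2.65 CPM with 4-OHT, against 67.3 and 43.0 CPM with vehicle (log2 change −3.91 ± 0.43 SE, adjusted p = 0.00251). Muc5ac, the gastric and airway mucin, had 22.2 and 20.0 CPM with 4-OHT, against 225 and 100 CPM with vehicle. Aqp5, a water channel of gastric glands and alveolar type 1 cells, had 2542 and 2117 CPM with 4-OHT, against 1848 and 1657 CPM with vehicle, and did not pass. Leaving out a shScramble library left 5 or 6 genes of the list called.

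Intestinal genes divided. Of 13 tested, 4 fell and none rose, against 2.67% of all genes lower, and the median was 0.06. Vil1, the brush-border actin binder villin, had 12.4 and 8.78 CPM with 4-OHT, against 135 and 118 CPM with vehicle. Lgals4, a galectin of gut epithelium, had 1.53 and 1.23 CPM with 4-OHT, against 136 and 30.6 CPM with vehicle. Cdhr2, a brush-border cadherin, was not on the list but was among the 12 largest decreases, with 0.306 and 0.258 CPM with 4-OHT, against 68.7 and 63.5 CPM with vehicle (log2 change −7.83 ± 0.37 SE, adjusted p = 0.000250). Muc2, the intestinal mucin, also fell, but its vehicle libraries differed several-fold: it had 0.245 and 0.0645 CPM with 4-OHT, against 2.59 and 22.8 CPM with vehicle. Between 1 and 4 of the intestinal genes were called when a shScramble library was left out, 1 of them without either 4-OHT library. Gpa33, an intestinal surface antigen, did not pass at 64.9 and 80.4 CPM with 4-OHT against 39.1 and 49.4 CPM with vehicle.

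Some plasma proteins of the liver type fell, all of them low with vehicle too. Of 32 listed, 20 were not tested. Of 12 tested, 5 were lower and none higher, against 2.67% of all genes lower. The median was −4.87, or −2.83 with members at 0 counts set to their bound. Trf, Itih2 and Ttr had 0 counts with 4-OHT, so they passed the low-count filter only through other groups. The count of 5 is thus not a test of the list. Its tested members summed to 352 and 283 CPM with 4-OHT, against 96.6 and 225 CPM with vehicle. Rbp4, the retinol carrier, had 0.245 and 0 CPM with 4-OHT, against 14.3 and 17.2 CPM with vehicle. Trf, encoding transferrin, had 0 CPM in both 4-OHT libraries, against 3.36 and 6.89 CPM with vehicle, at least 53.1-fold lower. Vehicle cultures of the same line under shNKX2-1 had 775 and 1195 CPM of Trf, and vehicle cultures without a hairpin 856 and 253 CPM, so vehicle levels differed widely between cultures of the line. Itih2 (at least 7.68-fold lower), F5 and Ttr made up the rest of the called members. With any one shScramble library left out, 2 genes of the list were called. C3, the central complement component, did not pass, at 347 and 281 CPM with 4-OHT against 63.5 and 191 CPM with vehicle. Of 16 complement genes tested, Cfi and Cd59a fell (12.5% called, against 4.33% of all genes). Without either 4-OHT library neither was called, and without vehicle replicate 1 only Cfi was. Cfi, a complement protease, had 24.3 and 20.3 CPM with 4-OHT, against 78.3 and 69.5 CPM with vehicle.

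Alveolar type 2 genes, which encode surfactant and its lipid handling, split by gene. Of 29 tested, 5 fell and 3 rose, against 2.67% of all genes lower and 1.67% higher, and the median was −0.40. Sftpc, the surfactant protein used to mark this cell type, had 10.5 and 8.91 CPM with 4-OHT, against 584 and 1157 CPM with vehicle (log2 change −6.48 ± 0.68 SE, adjusted p = 0.00221). Cxcl15, the lung chemokine lungkine, had 23.1 and 16.1 CPM with 4-OHT, against 458 and 918 CPM with vehicle. Lamp3, a lamellar body membrane protein, had 0.306 and 0.0645 CPM with 4-OHT, against 24.5 and 64.8 CPM with vehicle. Ctsh, the protease that processes surfactant proteins, had 179 and 183 CPM with 4-OHT, against 472 and 542 CPM with vehicle. Sftpa1 was the other member that fell. The 3 that rose were Chil1, a chitinase-like protein, Ppp1r14c, a phosphatase inhibitor, and Cd36, a fatty acid receptor. Chil1 had 13.2 and 14.1 CPM with 4-OHT, against 0.413 and 0.135 CPM with vehicle, and Cd36 had 56.9 and 57.8 CPM with 4-OHT, against 13.97 and 22.96 CPM with vehicle. Ppp1r14c had 0 counts in both vehicle libraries and was at least 9.65-fold higher with 4-OHT.

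Other type 2 genes did not pass the test. Sftpb had 2405 and 2239 CPM with 4-OHT, against 7080.4 and 6913 CPM with vehicle, without overlap, and did not pass (adjusted p = 0.122). It passed in the fit of the 4 shScramble libraries alone (adjusted p = 0.00422). Sftpd had 338 and 302 CPM with 4-OHT, against 273 and 268 CPM with vehicle, and Slc34a2, the type 2 phosphate transporter, 440 and 324 CPM, against 282 and 267 CPM. Neither passed. Napsa, the aspartic protease used to diagnose lung adenocarcinoma, had 35.6 and 31.0 CPM with 4-OHT, against 8.49 and 7.36 CPM with vehicle (adjusted p = 0.0517). Summed over the list, type 2 genes came to 7333 and 7211 CPM with 4-OHT, against 14480 and 15670 CPM with vehicle. Leaving out a shScramble library left 2 to 5 genes of the list called, with Sftpc and Chil1 among the named genes that were called in every such fit.

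Alveolar type 1 genes gave fewer calls, 10% of those tested against 4.33% of all genes. Cldn18, a lung and stomach tight-junction claudin, had 64.6 and 56.9 CPM with 4-OHT, against 376 and 187 CPM with vehicle, and Vegfa, an angiogenic factor, 223 and 188 CPM, against 483 and 937 CPM. They were the 2 of 20 that passed, both lower, and without a shScramble library at most 1 of the list was called. Ager, the receptor that marks type 1 cells, had 436 and 440 CPM with 4-OHT, against 318 and 271 CPM with vehicle, and did not pass. Among 12 airway secretory genes, Cbr2, Muc5b and Hp fell (25% called, against 4.33% of all genes). Muc5b, the airway mucin, had 30.2 and 33.1 CPM with 4-OHT, against 324 and 286 CPM with vehicle (log2 change −3.27 ± 0.48 SE, adjusted p = 0.00842). Cbr2, a carbonyl reductase of club cells, had 0.245 and 0.581 CPM with 4-OHT, against 13.97 and 71.7 CPM with vehicle. Leaving out either 4-OHT library left no airway gene called, and leaving out either vehicle library left 1.

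Some squamous and basal genes rose. Of 17 tested, 3 rose and none fell, against 1.67% of all genes higher, and the median was 0.74. Krt14, the basal keratin, had 16.3 and 19.2 CPM with 4-OHT, against 0.413 and 0.203 CPM with vehicle (log2 change 5.79 ± 0.53 SE, adjusted p = 0.00166). Sfn, the stratifin 14-3-3 protein, had 180 and 182 CPM with 4-OHT, against 48.8 and 30.5 CPM with vehicle. Krt16 gave a ratio of 30.9 (95% exact counting interval 8.21 to 261) from 62 counts with 4-OHT and 2 with vehicle. Trp63, the basal cell factor, was at 1.29 and 2.39 CPM with 4-OHT, against 0.766 and 0.540 CPM with vehicle, and did not pass. Ly6d, a surface protein of basal keratinocytes, was not on the list and was the second largest increase among called genes with mean log2 CPM of at least 2, with 42.8 and 43.2 CPM with 4-OHT, against 1.18 and 1.82 CPM with vehicle. Leaving out a shScramble library left 2 genes of the list called without 4-OHT replicate 1 or vehicle replicate 1, and 1 without 4-OHT replicate 2 or vehicle replicate 2. Krt14 was called each time, Krt16 in none of these fits, and Sfn not without either replicate 2. Ly6d was called in each.

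**Figure D2:**
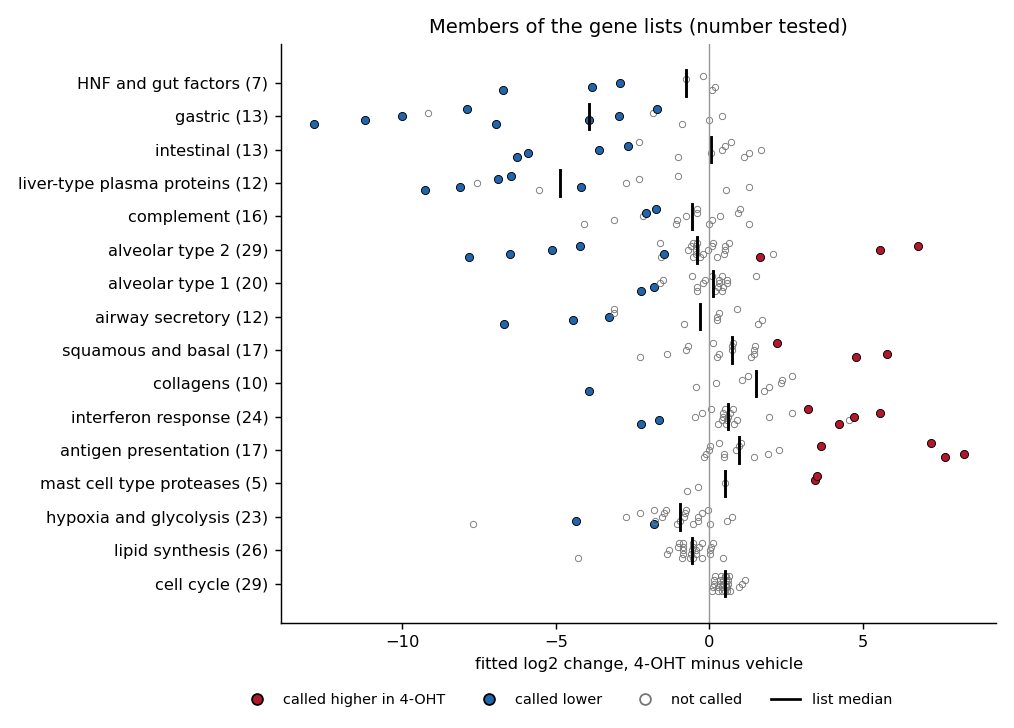
Fitted log2 change of each tested member of 16 gene lists, 4-OHT minus vehicle, with filled circles for called members and black bars at list medians. Gastric and liver-type genes lie far to the left, with 8 of 13 and 5 of 12 called lower; positions beyond about ±5 include genes at 0 counts in a group, whose fitted value depends on the prior count.

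The 12 largest decreases and 12 largest increases among well-expressed genes were each free of overlap by the rule that chose them. Among the decreases, Cyp2s1, a cytochrome P450 of lung and gut, had 0.122 and 0.323 CPM with 4-OHT, against 30.0 and 151 CPM with vehicle. Enpep, the aminopeptidase that cleaves angiotensin II, had 0.367 and 0.194 CPM with 4-OHT, against 83.2 and 106 CPM with vehicle (log2 change −8.34 ± 0.50 SE, adjusted p = 0.000412). Creb3l1, a membrane-bound secretory pathway factor, had 0.184 and 0.323 CPM with 4-OHT, against 55.1 and 75.2 CPM with vehicle. Myh7, a striated muscle myosin, had 0.245 and 0.194 CPM with 4-OHT, against 93.2 and 46.7 CPM with vehicle, and its reads could be shared with the neighbouring Myh6. Sema3a, an axon guidance cue, had 0.428 and 0.581 CPM with 4-OHT, against 40.7 and 27.6 CPM with vehicle. Unc13a, a synaptic vesicle priming protein, had 0.796 and 1.03 CPM with 4-OHT, against 6.66 and 95.8 CPM with vehicle, so its size rests mainly on vehicle replicate 2. Without that library its log2 change was −2.90 and it was not called. Arfgef3 and Fam83e fell to between 0.710 and 1.53 CPM with 4-OHT, against 32.8 to 56.0 CPM with vehicle.

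Among the increases, Cldn3, an epithelial tight-junction claudin, was largest with 131 and 157 CPM with 4-OHT, against 0.649 and 0.608 CPM with vehicle (log2 change 7.82 ± 0.68 SE, adjusted p = 0.00157). Fbln2, an extracellular matrix fibulin, had 378 and 443 CPM with 4-OHT, against 23.9 CPM in both vehicle libraries. Gsta1 and Gsta2, near-identical glutathione transferases whose reads may be shared, had 24.9 and 18.4 CPM and 126 and 137 CPM with 4-OHT, against 1.24 and 0.608 CPM and 10.97 and 9.52 CPM with vehicle. Mme, the membrane peptidase neprilysin, had 19.5 and 22.7 CPM with 4-OHT, against 1.53 and 1.76 CPM with vehicle. Rnf144a, a ubiquitin ligase, had 52.3 and 79.4 CPM with 4-OHT, against 5.78 and 2.36 CPM with vehicle. Apln, the peptide apelin, had 10.04 and 17.4 CPM with 4-OHT, against 1.18 and 1.22 CPM with vehicle. Cstf2t, a copy of a polyadenylation factor gene, had 17.4 and 24.0 CPM with 4-OHT, against 1.30 and 0.405 CPM with vehicle, while in the line without a hairpin it was at 21.5 and 28.0 CPM with 4-OHT and 18.2 and 24.6 CPM with vehicle. Bpifb4 and Lipk completed the set with Tpsab1, described below.

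**Figure D3:**
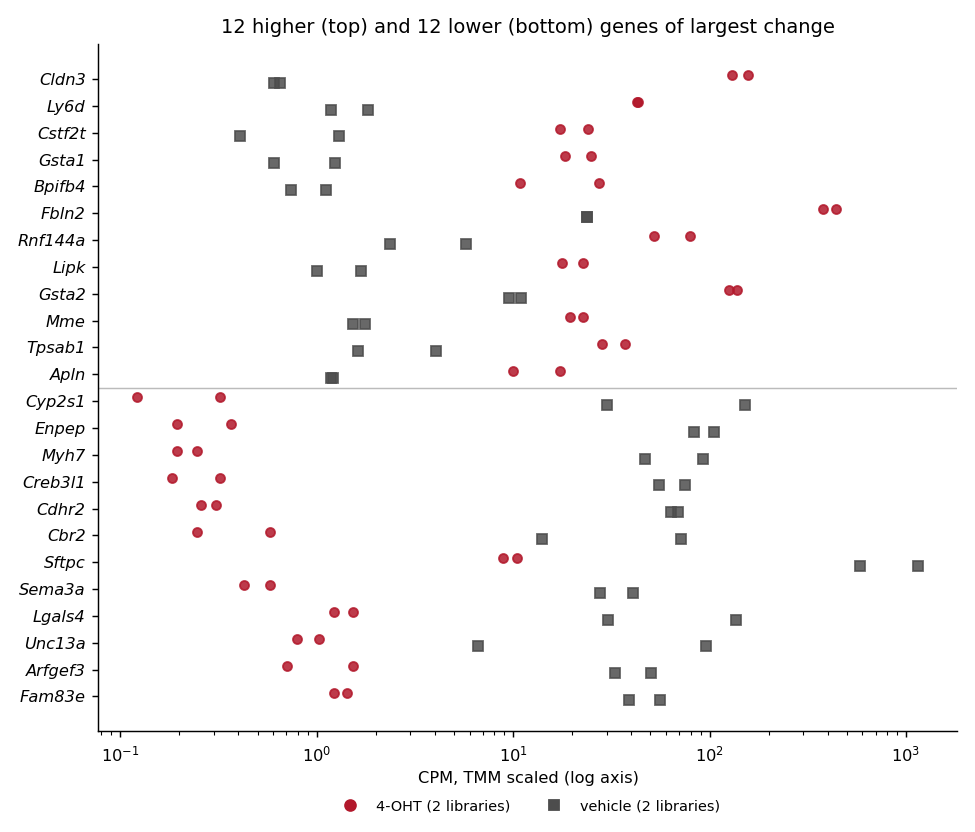
CPM in each library (log axis) of the 12 genes of largest increase (top) and the 12 of largest decrease (bottom) among called genes with mean log2 CPM of at least 2, 4-OHT as circles above vehicle as squares. Groups do not overlap by choice of the genes, and Cyp2s1, Cbr2, Lgals4 and Unc13a show wide gaps between their vehicle libraries.

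Drug and toxicant metabolism genes were called in both directions, 2 higher and 5 lower of 26 tested (26.9% called, against 4.33% of all genes). Beside Gsta1, Gsta2 and Cyp2s1, Ugt2b34, a glucuronosyltransferase with close paralogs, had 0 CPM in both 4-OHT libraries, against 28.5 and 47.6 CPM with vehicle, at least 397-fold lower. Nqo1, a quinone reductase, had 1.35 and 0.710 CPM with 4-OHT, against 13.4 and 4.12 CPM with vehicle. Sult1c2, a sulfotransferase, had 4.90 and 5.23 CPM with 4-OHT, against 16.9 and 14.1 CPM with vehicle. Fmo2, a lung monooxygenase, was at least 10.7-fold lower, with 0 counts in both 4-OHT libraries. With a shScramble library left out, 3 or 4 genes of the list were called.

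Some immune-related genes rose, most of them at low levels. Of 17 antigen presentation genes, 4 rose and none fell, against 1.67% of all genes higher, and the median was 0.95. The class II genes H2-Ab1, H2-Aa and H2-Eb1, which encode the chains that present peptide to helper T cells and are close paralogs of other H2 genes, had 0.857 to 2.94 CPM with 4-OHT and 0 counts in both vehicle libraries. They were at least 27.6-fold, 17.96-fold and 13.0-fold higher with 4-OHT. With 0 counts in vehicle, they passed the low-count filter only through other groups, so the count of 4 is not a test of the list. Psmb8, an immunoproteasome subunit, had 2.94 and 3.42 CPM with 4-OHT, against 0.295 and 0.203 CPM with vehicle. Cd74, the class II invariant chain, had 154 and 130 CPM with 4-OHT, against 16.9 and 41.7 CPM with vehicle (adjusted p = 0.0577), and passed with the 4 shScramble libraries alone (adjusted p = 0.0173). No antigen presentation gene was called when any one shScramble library was left out.

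Of 24 interferon response genes, Cmpk2, Rsad2, Gbp2 and Oasl2 rose while Mx1 and Ifit2 fell (25% called, against 4.33% of all genes). Rsad2, the antiviral enzyme viperin, had 3.61 and 8.20 CPM with 4-OHT, against 0.354 and 0.0675 CPM with vehicle. Cmpk2, its genomic neighbour, gave a ratio of 50.9 (95% exact counting interval 17.1 to 250) from 153 and 3 counts. Rnf144a, which also rose, lies close to both (chr12:26300964-26415254, with Rsad2 at chr12:26442746-26456452). Mx1, an antiviral GTPase, had 3.86 and 2.52 CPM with 4-OHT, against 16.7 and 12.9 CPM with vehicle. At most 2 of the list were called with a shScramble library left out, both without 4-OHT replicate 1. Among 24 NF-kB and chemokine genes, the cytokines Il18 and Csf2 rose and Il33, an alarmin, fell (12.5% called, against 4.33% of all genes). Il33 had 1.29 and 1.74 CPM with 4-OHT, against 11.8 and 25.8 CPM with vehicle. At most 1 of this list was called without a shScramble library.

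Hdc and Tpsab1, histidine decarboxylase and a tryptase typical of mast cells, both rose under the scrambled hairpin. Hdc had 67.6 and 98.3 CPM with 4-OHT, against 7.61 and 7.77 CPM with vehicle (log2 change 3.43 ± 0.42 SE, adjusted p = 0.00391). Tpsab1 had 28.3 and 37.3 CPM with 4-OHT, against 4.07 and 1.62 CPM with vehicle. Under shNKX2-1 Hdc had 5.68 and 2.29 CPM with 4-OHT, against 3.73 and 3.69 CPM with vehicle. Without a hairpin Hdc had 13.7 and 2.46 CPM with 4-OHT, against 58.8 and 1.13 CPM with vehicle. Tpsab1 under shNKX2-1 was at most 0.880 CPM in any library. Without a hairpin Tpsab1 had 15.4 and 0.805 CPM with 4-OHT, against 0.264 and 0 CPM with vehicle. Hdc and Tpsab1 were 2 of 5 tested members of the mast cell list (40% called, against 4.33% of all genes). In that list 5 of 12 members, among them the defining genes Cpa3, Fcer1a and Ms4a2, had 0 counts in all 4 libraries. Leaving out a 4-OHT library left 1 gene of the list called, and leaving out a vehicle library left none.

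Markers of other cells were scarce. Of 18 leukocyte markers, 8 had 0 counts in all 4 libraries, among them Adgre1 and Tyrobp, and the summed list had 61.3 and 45.2 CPM with 4-OHT, against 127 and 150 CPM with vehicle. None of the 6 tested passed. Ptprc, the leukocyte antigen CD45, had 3.18 and 2.78 CPM with 4-OHT, against 0.590 and 0.743 CPM with vehicle (adjusted p = 0.115), and was called in the fit of the 4 shScramble libraries alone (adjusted p = 0.0206). Its part in the values of the antigen presentation, interferon and mast cell genes was not tested. Fibroblast markers summed to 1.35 and 0.775 CPM with 4-OHT, against 0.472 and 0.338 CPM with vehicle, with 9 of 12 at 0 counts. Endothelial markers summed to 49.8 and 44.5 CPM with 4-OHT, against 47.0 and 81.4 CPM with vehicle. The 10 tumour epithelium markers, including Epcam at 366 and 380 CPM with 4-OHT and 348 and 389 CPM with vehicle, were present in every library. Their sum was 15710 and 13690 CPM with 4-OHT, against 10190 and 7582 CPM with vehicle, without overlap. The list's median log2 change was 0.66, 8 of 10 fitted values were above 0, and 1 member, Cldn3, was called. The part of this difference in the other results was not tested.

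Adhesion and matrix lists gave 1 to 3 calls each. These were 3 of 26 junction genes, 1 of 10 collagens, 1 of 17 integrins and laminins and 1 of 10 mesenchymal transition genes. Each share was above the 4.33% of all genes called in either direction. With so few calls, the counts are no result about these lists. Beside Cldn3 and Cldn18, Esrp2, an epithelial splicing regulator, was called among 26 junction genes, with 92.4 and 82.5 CPM with 4-OHT, against 199 and 184 CPM with vehicle. Of 10 collagen genes, Col27a1, a fibrillar collagen, fell to 0.551 and 0.516 CPM with 4-OHT, against 7.55 and 8.91 CPM with vehicle. The basement membrane chains Col4a1 and Col4a2 were at 496 and 540 CPM and 398 and 420 CPM with 4-OHT, against 180 and 91.2 CPM and 152 and 83.9 CPM with vehicle. Neither passed here (adjusted p = 0.0797 and 0.103), and both passed with the 4 shScramble libraries alone (adjusted p = 0.0152 and 0.0135). Itga2, a collagen-binding integrin, had 61.3 and 50.2 CPM with 4-OHT, against 161 and 355 CPM with vehicle. Spp1, the secreted phosphoprotein osteopontin, was the 1 of 10 mesenchymal transition genes that rose, with 191 and 346 CPM with 4-OHT, against 36.6 and 48.6 CPM with vehicle. Cldn3 and Col27a1 were called without each shScramble library in turn. Esrp2 was called in none of these fits, Cldn18 only without vehicle replicate 2, and Spp1 only without 4-OHT replicate 1. Itga2 was called only without vehicle replicate 1.

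The signalling lists held 1 called gene each, all lower. These were 5.56% of EGF and FGF family genes, 5% of MAPK feedback genes, 10% of Wnt targets and 5.26% of YAP and TEAD targets, against 4.33% of all genes called in either direction, so the counts are no result about the lists. Fgfr3, a fibroblast growth factor receptor, had 3.79 and 2.84 CPM with 4-OHT, against 53.9 and 52.2 CPM with vehicle, and was the 1 of 18 EGF and FGF family genes called. Egr1, an immediate early gene of MAPK signalling, had 31.2 and 23.04 CPM with 4-OHT, against 89.3 and 66.1 CPM with vehicle, the 1 of 20 in its list. Lgr4, a receptor of the Wnt pathway, had 27.3 and 25.7 CPM with 4-OHT, against 53.9 and 54.9 CPM with vehicle, the 1 of 10. F3, or tissue factor, was the 1 of 19 YAP and TEAD targets called, with 17.4 and 16.7 CPM with 4-OHT, against 41.7 and 202 CPM with vehicle. Fgfr3, Egr1 and Lgr4 each lost their call when any one shScramble library was left out. F3 kept its call only without vehicle replicate 1, and its log2 change of −2.84 was −1.33 without vehicle replicate 2. Of 4 ciliated, 3 neuroendocrine and 18 transitional alveolar genes tested, none was called.

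No cell cycle gene passed, although 29 of 29 tested had fitted values above 0 with a median of 0.52. Mki67, the proliferation antigen, had 413 and 530.0 CPM with 4-OHT, against 362 and 269 CPM with vehicle. Ccnd1, cyclin D1, had 1588 and 1424 CPM with 4-OHT, against 851 and 693 CPM with vehicle (adjusted p = 0.123). In the fit of the 4 shScramble libraries alone, 2 of the 29, Birc5 and Ccnd1, were called higher. That fit called 630 of all 13711 genes higher, so this count is no result about the list. In line 1027B without a hairpin 26 of the same 29 genes had fitted values below 0, with a median of −0.61, and none was called there.

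In summed level, hypoxia and glycolysis genes mainly separated the vehicle libraries from each other. The sum was 10540 and 10810 CPM with 4-OHT, against 9922 CPM in vehicle replicate 1 and 24140 CPM in vehicle replicate 2. By gene, 20 of 23 tested had fitted values below 0, with a median of −0.97. Both 4-OHT libraries lay below both vehicle libraries for 10 of the 23, against 28.6% of all genes. They lay above both for 1 gene of the list, against 32.6% of all genes. In the same line without a hairpin 20 of the 23 had fitted values below 0, with a median of −0.63, and none was called there. Slc16a3, a lactate exporter, and Vegfa were the 2 of 23 called (8.7%, against 4.33% of all genes), both lower. Slc16a3 had 3.98 and 4.20 CPM with 4-OHT, against 26.4 and 140 CPM with vehicle. Without vehicle replicate 2, or without either 4-OHT library, none of the list was called, and without vehicle replicate 1, 3 were. Bnip3, a hypoxia-induced mitophagy receptor, had 31.3 and 59.1 CPM with 4-OHT, against 59.3 and 368 CPM with vehicle, and did not pass. Vehicle replicate 2 was also the highest library for the unfolded protein response list, at 4984 and 4892 CPM with 4-OHT against 5553 and 7746 CPM with vehicle, and for lipid synthesis, at 6325 and 7596 CPM with 4-OHT against 8488 and 10970 CPM with vehicle. None of the 24 and 26 genes of those lists was called, while 23 and 21 had fitted values below 0. In the fit of the 4 shScramble libraries alone 6 of 26 lipid synthesis genes were called lower, Hmgcs1 and Mvd of the sterol pathway among them. That fit called 972 of all 13711 genes lower.

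**Figure D4:**
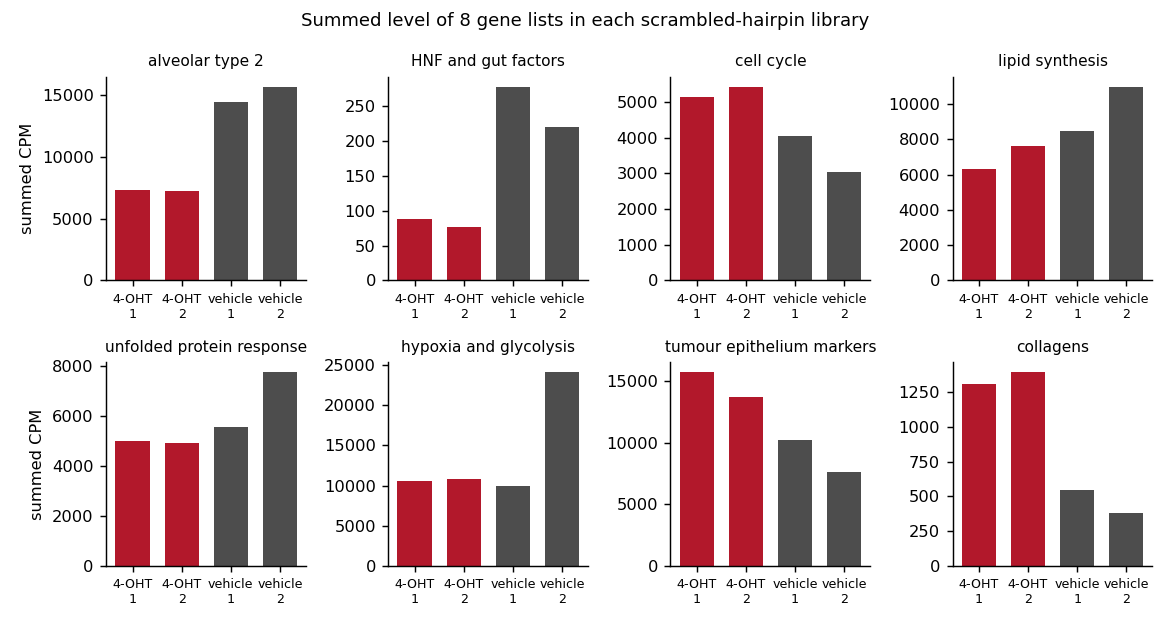
Summed CPM of the tested members of 8 gene lists in each library, 4-OHT on the left and vehicle on the right. Alveolar type 2 and HNF sums are low in both 4-OHT libraries, and vehicle replicate 2 alone is high for hypoxia and glycolysis at 24140 CPM.

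Promoter windows were searched for forkhead letters on either strand, either the core TGTTTAC or one of its variants, of which the first was TATTTAC and the other was TGTTTGC. Windows run from 250 bases before to 50 bases after the gene start (RefSeq, GRCm38.p6), and 277 of 386 genes called lower and 175 of 241 called higher had one. A match was found for 44 of the 277 (15.9%), for 17 of the 175 (9.71%) and for 922 of the 10019 tested genes with a window (9.2%). By single windows the share was 12.8% for lower genes, 8.76% for higher genes, 7.95% for all genes tested and 11.2% for all promoters in the reference. A match is only a match of letters and shows no binding. Of the 54 named genes that fell 39 had a window and 10 a match, and of the 30 that rose 24 had a window and 1 a match. The windows of the first 4 lower genes with a match, in order of fitted log2 change, and of the 1 higher gene, are printed to show the letters in their place. Gkn2 and Fmo2 had 0 counts with 4-OHT, so their place in that order depends on the prior count, and Fmo2 had only 32 counts with vehicle. Each reads 5′ to 3′ along the gene with the match in capitals. That of Gkn2 spans chr6:87373115-87373414 (plus strand), Lamp3 chr16:19706316-19706615, Fmo2 chr1:162898444-162898743, Anxa10 chr8:62123144-62123443 and Rsad2 chr12:26456403-26456702 (minus strand for these).
Gkn2: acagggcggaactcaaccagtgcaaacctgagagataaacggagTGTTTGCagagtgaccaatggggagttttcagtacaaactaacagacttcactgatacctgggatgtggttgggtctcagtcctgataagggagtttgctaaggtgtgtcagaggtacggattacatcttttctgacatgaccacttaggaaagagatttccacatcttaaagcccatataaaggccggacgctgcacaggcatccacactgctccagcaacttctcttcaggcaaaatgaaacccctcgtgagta
Lamp3: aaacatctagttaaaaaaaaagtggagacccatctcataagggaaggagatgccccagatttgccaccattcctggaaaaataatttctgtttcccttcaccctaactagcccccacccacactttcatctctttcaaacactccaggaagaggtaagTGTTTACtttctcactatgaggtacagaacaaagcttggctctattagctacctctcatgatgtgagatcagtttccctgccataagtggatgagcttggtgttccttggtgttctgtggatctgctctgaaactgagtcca
Fmo2: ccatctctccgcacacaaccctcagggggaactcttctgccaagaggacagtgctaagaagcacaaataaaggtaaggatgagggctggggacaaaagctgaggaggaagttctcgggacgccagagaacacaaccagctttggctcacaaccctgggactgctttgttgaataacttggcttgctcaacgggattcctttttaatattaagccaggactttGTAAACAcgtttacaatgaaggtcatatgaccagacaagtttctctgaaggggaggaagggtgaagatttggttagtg
Anxa10: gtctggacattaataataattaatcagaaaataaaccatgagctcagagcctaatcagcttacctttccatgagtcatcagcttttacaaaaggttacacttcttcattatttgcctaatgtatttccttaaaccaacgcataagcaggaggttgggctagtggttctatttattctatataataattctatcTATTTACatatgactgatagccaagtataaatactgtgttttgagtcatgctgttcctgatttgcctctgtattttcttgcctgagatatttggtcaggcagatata
Rsad2: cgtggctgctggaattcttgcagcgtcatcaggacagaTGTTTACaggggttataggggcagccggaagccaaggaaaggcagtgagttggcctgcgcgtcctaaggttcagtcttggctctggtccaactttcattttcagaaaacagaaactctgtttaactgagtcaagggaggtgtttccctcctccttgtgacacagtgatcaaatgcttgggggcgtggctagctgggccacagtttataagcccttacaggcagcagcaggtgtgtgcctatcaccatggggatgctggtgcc
The match lies 206 bases before the start in Gkn2, 92 in Lamp3, 28 in Fmo2, 57 in Anxa10 and 212 in Rsad2. In Fmo2 it is on the opposite strand, read here as GTAAACA.

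The 4-OHT response of shNKX2-1 organoids was compared with that under the scrambled hairpin in the same fit. Nkx2-1 itself had 350 and 280 CPM in shNKX2-1 vehicle libraries, against 424 and 428 CPM in shScramble vehicle libraries. With 4-OHT it had 181 and 207 CPM under shNKX2-1, against 359 and 408 CPM under shScramble. Much Nkx2-1 RNA thus remained under its hairpin. At an adjusted p under 0.05 no gene (0% of 14465) differed between the hairpins with edgeR, while 782 had an unadjusted p under 0.05 and DESeq2 called 89. Under shNKX2-1 the fitted change had the same sign for 234 of the 241 higher genes and 372 of the 386 lower genes (97.1% and 96.4%; 51.2% and 48.8% of all genes were above and below 0 there). Ffar4, a fatty acid receptor, had 2.82 and 2.19 CPM with 4-OHT and 15.3 and 12.6 CPM with vehicle under shScramble, and 0.406 and 0.0818 CPM with 4-OHT and 28.5 and 34.2 CPM with vehicle under shNKX2-1 (difference 4.42 on the log2 scale, adjusted p = 0.160). Krt14 had 1.22 and 0.573 CPM with 4-OHT and 0.439 and 0.438 CPM with vehicle under shNKX2-1 (difference 4.76, adjusted p = 0.241). Sema3a had 4.74 and 17.1 CPM with 4-OHT and 10.4 and 6.82 CPM with vehicle under shNKX2-1 (difference −6.40, adjusted p = 0.159). None of these differences passed, so a distinct response under either hairpin is not shown. Without shNKX2-1 4-OHT replicate 1 the test called 3552 genes, and without replicate 2 it called 7, so this count rests on which of those libraries is kept.

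The same tumour line without a hairpin gave values side by side, from a table that shares no library with the shScramble cultures. No gene was called there with edgeR (0% of 15198 in either direction), with 1396 at an unadjusted p under 0.05 and 562 called by DESeq2. Of the 232 higher genes that were tested in both tables, 213 (91.8%) had a fitted change above 0 without a hairpin, against 49.9% of all 13552 genes. Of the 373 lower genes 336 (90.1%) had one below 0, against 50.1% of all genes. Median changes without a hairpin were 1.4996 and −1.62 for these genes, against 2.57 and −3.10 under the scrambled hairpin. Tff1, Gkn2, Sftpc and Cldn3 kept their direction in the fit, while Hdc did not (log2 change −1.58). Foxa2 had 6.17 and 2.59 CPM with 4-OHT, against 89.9 and 188 CPM with vehicle, in replicates 1 and 4. Sftpc had 17.2 CPM with 4-OHT against 865 CPM with vehicle in replicate 1, and 0.581 CPM against 4.92 CPM in replicate 4, so vehicle cultures of this line differed widely in Sftpc. Cldn3 had 50.1 and 124 CPM with 4-OHT, against 3.27 and 6.47 CPM with vehicle. Hnf4a had 12.2 CPM with 4-OHT against 215 CPM with vehicle in replicate 1, and 207 CPM against 451 CPM in replicate 4. Cdhr2 had 3.18 CPM with 4-OHT against 71.4 CPM with vehicle in replicate 1, but 240 CPM against 193 CPM in replicate 4 (log2 change −0.65). Replicates 1 and 4 carry different leading numbers in their titles.

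**Figure D5:**
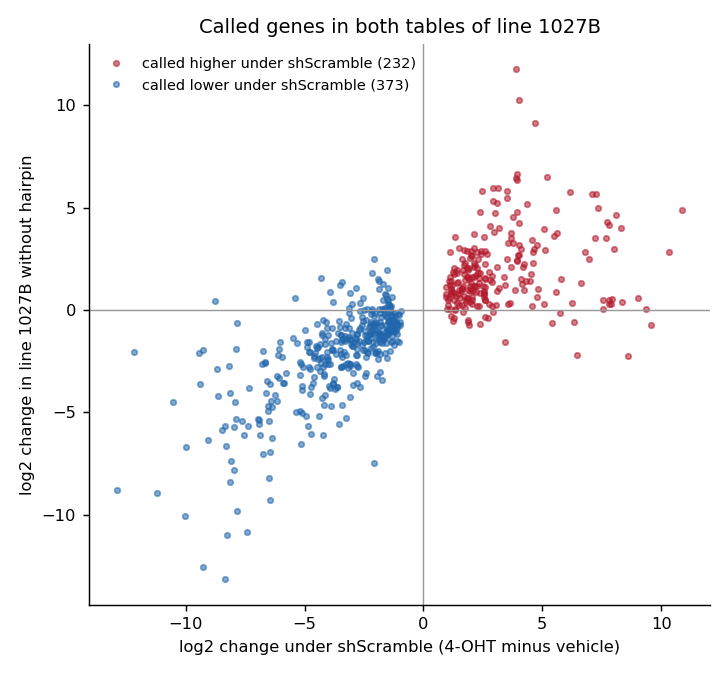
Log2 change, 4-OHT minus vehicle, in line 1027B without a hairpin (vertical axis) against that under the scrambled hairpin (horizontal axis) for genes called under the scrambled hairpin. Of 232 higher genes 213 lie above 0 on the vertical axis, and of 373 lower genes 336 lie below it.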

How the data were processed

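RNA-seq counts per gene were deposited by the authors as raw counts for 8 hairpin libraries and, in another table, for cultures without a hairpin. The submitters' processing notes name STAR 2.7.6a, featureCounts 1.5.1, DESeq2 and GRCm38, without roles. Strand setting, multiply mapped reads and annotation release: not given in the sources used here. Per the labels, libraries were made with a directional kit.

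Genes were filtered with filterByExpr and scaled with TMM, and the quasi-likelihood test of edgeR 4.0.16 was fitted on 4 group means over all 8 libraries, with Benjamini-Hochberg adjustment over all genes and a threshold of 0.05. CPM values use the TMM-scaled library sizes. Folds against 0 counts are bounds, taking 3 counts summed over that group's libraries. Intervals are exact, at 95%, and cover counting error only. The script was tested on simulated data. The table without a hairpin was fitted apart, with a term for the leading number of the library titles, here called the run term. Replicate numbers follow accession order, and no label pairs the libraries.

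Named genes are the Foxa family and Nkx2-1, the 12 largest called changes per direction with mean log2 CPM of at least 2, up to 4 called members of each list, and the leading genes of the difference between hairpins. List members named without a call were chosen for their roles after their values were seen. The members and lists were chosen with earlier results of these data known. Alternatives were RLE scaling, DESeq2 1.42.0, no filter, a minimum log2 change of 1, the 4 shScramble libraries alone, and leaving out each library. Leaving out a shNKX2-1 library was added after seeing the data. Some named genes are not reported here.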

Additional observations from a re-analysis of the deposited data

Results flagged for a closer look

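For 2 genes the libraries moved opposite ways under the 2 hairpins without overlap, and the test of the difference did not pass. Sptssb, a subunit of serine palmitoyltransferase, had 5.57 and 7.81 CPM with 4-OHT against 89.6 and 47.4 CPM with vehicle under shScramble, and 105 and 139 CPM with 4-OHT against 101 and 64.5 CPM with vehicle under shNKX2-1 (difference −3.92 on the log2 scale, edgeR adjusted p = 0.159). Gm8113 had 21.0 and 34.1 CPM with 4-OHT against 6.31 and 7.16 CPM with vehicle under shScramble, and 3.72 and 2.21 CPM with 4-OHT against 11.8 and 6.32 CPM with vehicle under shNKX2-1 (difference 3.63, edgeR adjusted p = 0.278).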

How the results depend on the processing

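The 627 calls under the scrambled hairpin became 633 with RLE scaling, 1092 with DESeq2, 1372 of 25049 genes with no filter, 276 with a minimum log2 change of 1, and 1602 with the 4 shScramble libraries alone. With 1 library left out they ranged from 138 (without shScramble 4-OHT replicate 2) to 1655 (without shNKX2-1 4-OHT replicate 2). None of the 627 had the opposite sign under these alternatives. Of the 84 named genes that were called, 33 were called in every setting. The difference between hairpins gave 0 calls with edgeR, 782 at an unadjusted p under 0.05, 89 with DESeq2, 227 with no filter, and 0 to 3552 with 1 library left out. The comparison without a hairpin gave 0 calls with edgeR, 1396 at an unadjusted p under 0.05, 562 with DESeq2, 156 with no filter, 0 without the run term and 0 with each library left out. Where 1 library was left in a group it was assumed to vary like the others. The cause was not tested. No paired analysis was possible because no label pairs the libraries, whose replicate numbers come from accession order. With 2 libraries a group, from 1 tumour line, small changes were not detectable.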
